A study of Homo sapiens with 6 samples.

Results

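Cytosolic ribosomal proteins are the protein components of the ribosomes that translate cytoplasmic messenger RNA. Their genes were taken as the protein-coding rows of the count table named RPL or RPS followed by a number, together with RPLP0, RPLP1, RPLP2 and RPSA and without the RPS6 kinases. The rule found 87 of the 58735 genes, 53 of the large subunit and 34 of the small subunit. Of the 87, 77 are the core genes whose products make up the common ribosome, and 10 are paralogues of core genes with restricted or additional uses. RNA sequencing was done on T3M4, an established human cell line from a pancreatic ductal adenocarcinoma. There were 3 libraries with the genotype label MUC16 knockout and 3 with the label MUC16 expressing, called WT in the titles. Both groups were untreated, and the comparison addresses how MUC16, a large membrane-bound mucin, bears on gene expression. The labels do not say how the knockout was made, whether it is 1 clone, or whether replicates were grown separately, so p-values measure the spread between these libraries, which may be technical.

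The large subunit joins amino acids into protein and the small subunit reads the messenger. Each ribosome carries 1 copy of most of these proteins, and cells keep their supply matched, largely at translation and by degrading unassembled protein. Most messengers of the family start with a cytosine followed by a run of pyrimidines, the 5′ terminal oligopyrimidine (TOP) motif, through which the growth kinase mTOR and the RNA-binding protein LARP1 control their translation. Carcinoma cells use large amounts of ribosomes, and RPL5 and RPL11 also bind MDM2, the ubiquitin ligase of p53.

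MUC16 RNA went against the labels: its counts were 292, 504 and 323 in the libraries labelled knockout, against 98, 144 and 90 in the libraries labelled WT, a log2 fold change of 1.79. The labels do not say how the gene was altered, and every direction below is between libraries as labelled. The libraries held 19088927 to 28612621 counts labelled knockout, against 22963814 to 27647455 labelled WT. The 5 epithelial markers fixed for this line (KRT8, KRT18, KRT19, EPCAM and CDH1) were all detected and all higher in the libraries labelled knockout, with summed levels of 4730 to 4953 CPM labelled knockout, against 2887 to 2943 CPM labelled WT. Of 10 markers of leukocytes, endothelium and fibroblasts, 5 (PTPRC, CD3E, CD68, COL1A2 and DCN) were too low to test, and 4 of the other 5 were higher in the libraries labelled knockout. They ranged up to COL1A1, at 40.7 to 44.8 CPM in libraries labelled knockout, against 29.3 to 33.1 CPM in libraries labelled WT. The 10 summed to 62.1 to 66.9 CPM labelled knockout, against 44.0 to 50.6 CPM labelled WT. The part of either list in the results below was not tested. CPM here are counts scaled to library size and between libraries by trimmed means (TMM).

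Start sites show the feature that the family is known for. The RefSeq promoter table (GRCh38.p14) held 70 of the 87 genes. A start at C with at least 4 pyrimidines after it, read on the gene's strand only, was found in 42 of the 62 core genes in the table (67.7%), against 1429 of all 35116 promoters (4.07%). It was found in 25 of 38 core genes of the large subunit (65.8%), in 17 of 24 of the small subunit (70.8%) and in 2 of 8 paralogues. The lines below give 20 bases before and 10 bases from the annotated start, 5′ to 3′ on the gene's strand, with the pyrimidine run from a C at the start in capitals. They are the genes whose values the text turns on: 4 that were lower, a pair of paralogues, one that was not called, and both that were higher.
RPS14, chr5:150449730-150449759, minus strand: tcgctccgccccctcccactCTCTCTTTCC
RPS23, chr5:82278345-82278374, minus strand: ctccttcctgcggtgcttctCTCTTTCgct
RPL35, chr9:124861948-124861977, minus strand: aggtcagccccgcctacttcCTCTTTCCCT
RPL7A, chr9:133348198-133348227, plus strand: attacccacaattccctttcCTTTCTCTCT
RPL22, chr1:6199586-6199615, minus strand: ctgcgtagttcgctcacctcCCTTTCTaac
RPL22L1, chr3:170870186-170870215, minus strand: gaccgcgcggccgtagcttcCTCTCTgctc
RPLP0, chr12:120201102-120201131, minus strand: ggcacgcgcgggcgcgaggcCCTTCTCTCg
RPS9, chr19:54200838-54200867, plus strand: cagccgtggcgcttccgcgcCTCTTTCTCa
RPS28, chr19:8321476-8321505, plus strand: ggctctccccgaagcacgtgactcctctcc

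Lower genes, higher genes and genes that were not called all appear among the starts with a run. Only RPS28, of the genes shown, has an annotated start without one, and an annotated start can differ from the start used in these cells. With TMM scaling, core genes with a TOP start had a median log2 fold change of -0.14 (25 of 42, or 59.5%, lower and 1 higher). Those in the table without one had -0.16 (14 of 20, or 70%, lower and 1 higher). Over all genes tested 25.9% were lower, and over other protein-coding genes at a mean of at least 100 CPM 51.1% were. Such calls depend on how libraries are scaled, as given below. These RNA counts do not measure translation, the step at which the motif is known to act.

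With TMM scaling, most ribosomal protein genes were lower in the libraries labelled knockout, by small amounts. With cyclic loess scaling, given in the next paragraph, the share called lower was near that of all genes. At an adjusted p under 0.05 (edgeR's quasi-likelihood test, Benjamini-Hochberg over all 16655 genes tested), 56 of the 84 members tested were lower, 2 were higher and 26 were not called. Over all genes tested, 25.9% were lower and 26.7% were higher, so 4317 genes fell and 4442 rose. The median log2 fold change of the members was -0.15, against 0.00 over all genes, and 78 of the 84 lay below 0. Ribosomal protein genes are highly expressed, and among the 2376 other protein-coding genes at a mean of at least 100 CPM, 51.1% were lower and 22.4% higher, with a median of -0.11. Of the 71 members at that level, 48 (67.6%) were lower and 2 higher, with a median of -0.15. The quartiles of the members were -0.24 and -0.08, and those of the other highly expressed genes -0.29 and 0.08. In RNA from whole cultures, less RNA per cell and fewer cells expressing a gene cannot be told apart.

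The 3 members not tested were RPL10L, with 0 counts in every library, and the 2 Y-linked genes. Of the 56 lower members, 45 were lower by less than 20%. Values of the 2 groups did not overlap in 59 of the 84 members (70.2%), against 59.0% of all genes tested, and 57 of these were lower without overlap, against 29.0% of all genes. At a mean of at least 100 CPM, groups did not overlap in 70.4% of the members. Among the other protein-coding genes at that level the share was higher, at 77.6%. The count of lower members depends on how libraries are scaled: with cyclic loess, which centres genes of each expression level, limma-trend called 23 (27.4%) lower and 6 (7.14%) higher. Over all genes that fit called 25.1% lower and 25.7% higher, so the members' share of lower calls was near the background. Among the other protein-coding genes at a mean of at least 100 CPM it called 35.6% lower and 34.2% higher, against 15 (21.1%) lower and 6 higher of the 71 members at that level. Of the members, 24 that lay below 0 with TMM lay above 0 with cyclic loess, and 2 moved the other way. All 23 were among the 56, and RPS9 and RPS28 were higher under both. Of the 84, 58 were lower and 2 higher in the authors' deposited table, and 56 were lower in both analyses.

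**Figure D1:**
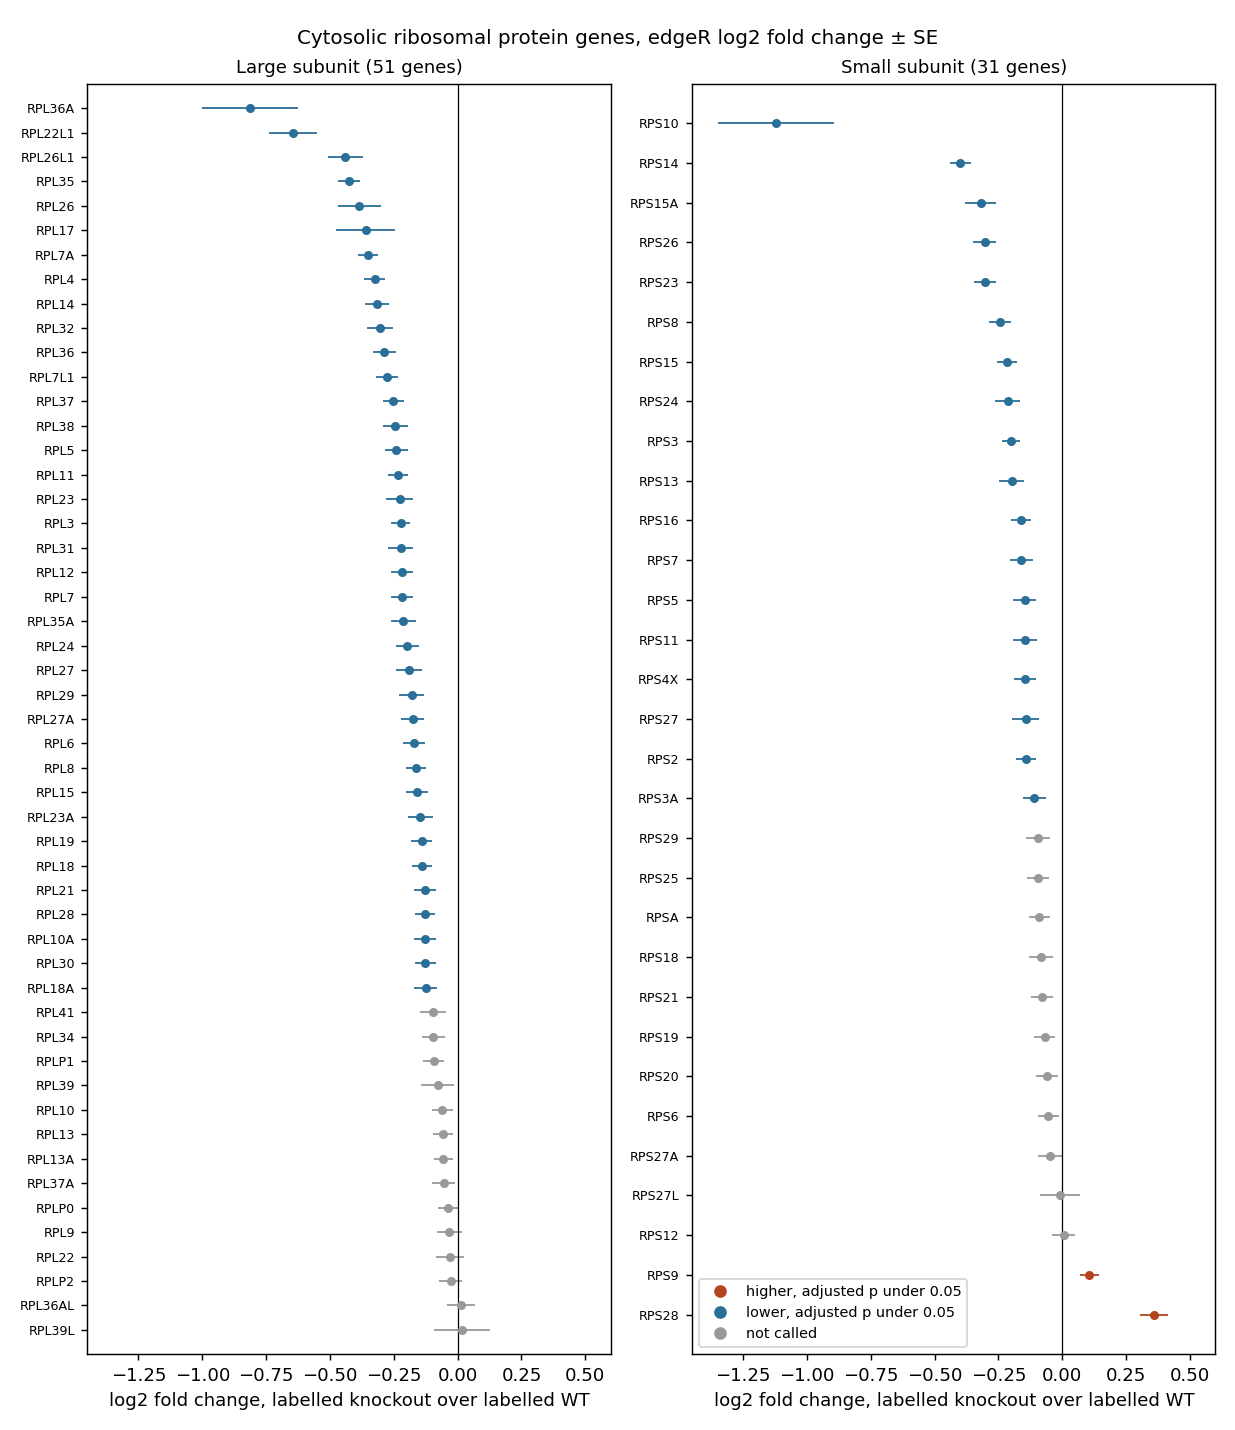
Log2 fold change of each ribosomal protein gene tested, labelled knockout over labelled WT, with bars of 1 standard error from edgeR; 51 large subunit genes stand on the left and 31 small subunit genes on the right, and RPL3L, with few counts, and 1 small subunit gene are not drawn. Most points lie between -0.4 and 0, and RPS9 and RPS28 are the 2 called higher with TMM scaling.

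With TMM scaling both subunits were mostly lower. Of 52 large subunit genes tested, 37 were lower and the others were not called by edgeR's adjusted p, with a median log2 fold change of -0.17. Of 32 small subunit genes, 19 were lower and 2 higher, with a median of -0.15. All 46 core genes of the large subunit lay below 0, and so did 28 of the 31 core genes of the small subunit. With cyclic loess the medians were -0.06 for the large subunit, with 16 of 52 (30.8%) lower, and -0.02 for the small subunit, with 7 of 32 (21.9%) lower, beside 25.1% lower and a median of -0.01 over all genes. Each subunit then had 3 genes higher. Without replicate 2 labelled knockout the medians were -0.12 for the large and -0.09 for the small subunit.

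Summed over the members, ribosomal protein genes took 3.92, 3.73 and 4.08% of the counts of the libraries labelled knockout, against 4.15, 4.14 and 4.10% of the libraries labelled WT. The groups did not overlap, but the highest library labelled knockout lay just under the lowest labelled WT. Large subunit genes took 2.50, 2.37 and 2.59% labelled knockout, against 2.66, 2.65 and 2.62% labelled WT, without overlap. Small subunit genes took 1.42, 1.36 and 1.49% labelled knockout, against 1.49, 1.49 and 1.48% labelled WT, and here the groups overlapped. The mean share was 3.91 ± 0.177% labelled knockout and 4.13 ± 0.0256% labelled WT (SD, n = 3 each). The ratio of large to small subunit counts was 1.76, 1.74 and 1.74 in libraries labelled knockout and 1.78, 1.78 and 1.77 in libraries labelled WT. That is 1.744 ± 0.00997 labelled knockout and 1.779 ± 0.00453 labelled WT (SD, n = 3 each), with groups that did not overlap. No test was made of these sums, since a p over a score of chosen members is not given.

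Replicate 2 labelled knockout was the lowest of its group for 72 of the 84 members, replicate 1 for 7 and replicate 3 for 5. Its median core gene lay 0.16 below the mean of all 6 libraries on the log2 scale, against 0.06 below for replicate 1 and 0.01 below for replicate 3. In the libraries labelled WT the lowest values were spread over replicates 1, 2 and 3, with 17, 25 and 42 members. Without replicate 2 labelled knockout, 44 members were lower and 2 higher.

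**Figure D2:**
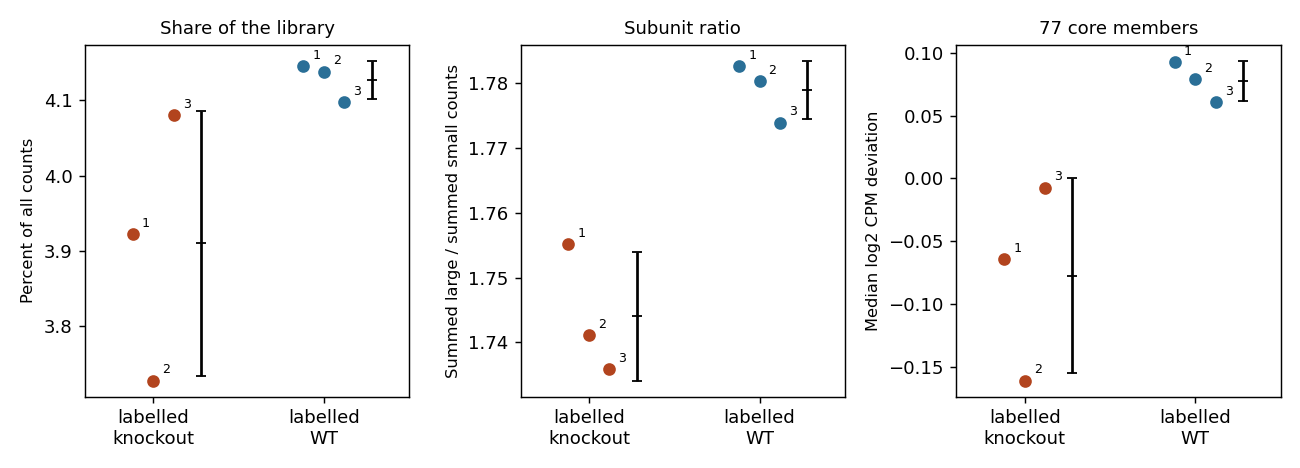
Each library's share of counts in ribosomal protein genes, ratio of large to small subunit counts, and median deviation of the 77 core genes from their mean over the 6 libraries (log2 CPM), with replicate numbers beside the points and mean ± SD beside each group. The y axes do not start at 0. Libraries labelled knockout lie below those labelled WT in all 3 panels, and replicate 2 labelled knockout is the lowest in share and in median deviation.

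Among genes of the large subunit's exit tunnel, 6 of 7 (85.7%) were lower with TMM and 3 with cyclic loess. Over all members tested the shares were 66.7% with TMM and 27.4% with cyclic loess, and over all genes 25.9% and 25.1%. RPL35, whose protein lines the rim of the exit tunnel where new protein leaves, had 418, 390 and 432 CPM in the libraries labelled knockout, against 557, 566 and 543 CPM in the libraries labelled WT. All 3 libraries labelled knockout lay well below all 3 labelled WT. Its log2 fold change was -0.43 ± 0.04 (SE; edgeR adjusted p = 1.09e-08), the largest fall among members at a mean of at least 100 CPM. The other proteins at or near the tunnel were RPL4, RPL17, RPL19, RPL23A, RPL31 and RPL39. RPL4, which reaches into the tunnel, had 1287, 1217 and 1345 CPM labelled knockout, against 1648, 1581 and 1589 CPM labelled WT, a log2 fold change of -0.32. RPL39, also in the tunnel wall, had 158, 126 and 155 CPM labelled knockout, against 167, 152 and 143 CPM labelled WT. These overlapped, and the difference of -0.08 ± 0.06 was not called. With cyclic loess, RPL4, RPL17 and RPL35 were the 3 of the 7 still called lower. RPL17 held only 135 to 223 counts in a library and shares exons with another coding gene on the same strand. Pseudogenes held 11.2% of the summed reads of RPL17 and its pseudogenes labelled knockout, against 5.15% labelled WT. The call of RPL17 was lost without replicate 3 labelled WT (adjusted p = 0.0545), and that of RPL19 without replicate 2 labelled knockout (0.0623) or with upper-quartile factors (0.0921). The call of RPL23A was lost without replicate 1 (0.0527) or replicate 2 (0.116) labelled knockout or with upper-quartile factors (0.121).

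RPL7A, also of the large subunit, had 905.4, 891.6 and 970.6 CPM labelled knockout, against 1177, 1169 and 1180 CPM labelled WT. The groups were well apart, with a log2 fold change of -0.35 ± 0.04 (SE; edgeR adjusted p = 9.21e-08). RPL5 and RPL11, which enter the ribosome together in a particle with the 5S ribosomal RNA, changed by nearly equal amounts. RPL5 had 624, 573 and 653 CPM labelled knockout, against 756, 708 and 721 CPM labelled WT, a log2 fold change of -0.24. RPL11 had 482, 465 and 483 CPM labelled knockout, against 567, 577 and 537 CPM labelled WT, a log2 fold change of -0.23. Both were lower with TMM, with no overlap between groups. With cyclic loess both were still called lower, but by only 0.10 (limma-trend adjusted p = 0.0495 for RPL5 and 0.0325 for RPL11). RPL3, near the peptidyl transferase centre, was also lower, with 1018, 1000.0 and 1025 CPM labelled knockout, against 1189.95, 1189.6 and 1173 CPM labelled WT, a log2 fold change of -0.22 that was not called with cyclic loess.

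Of the 4 proteins at the stalk that recruits elongation factors, 1 (25%) was lower with TMM and 3 were not called. That is near the 25.9% lower over all genes tested, while 66.7% of the members were lower. RPLP0, the base of the stalk, had 2520.1, 2354 and 2607 CPM in libraries labelled knockout, against 2546, 2582 and 2544 CPM in libraries labelled WT. The WT values fell inside the range labelled knockout, and the log2 fold change of -0.04 ± 0.04 was not called with TMM; it was 0.12 and called higher with cyclic loess. RPLP1 (-0.09 ± 0.04, edgeR adjusted p = 0.0604) and RPLP2 (-0.03 ± 0.04) were not called, and RPL12, which binds at the stalk's root, was lower by 0.22 on the log2 scale with TMM and not called with cyclic loess. RPL10, a late-joining protein of the large subunit, had a log2 fold change of -0.06 and was not called. Without replicate 3 labelled knockout, edgeR called RPLP1 (adjusted p = 0.0445) and RPL10 (0.0384) lower, and RPLP1 was also called without replicate 1 labelled knockout (0.0402). RPLP1 was called lower, too, by DESeq2 (0.0476), by limma-voom (0.0323) and with no filter (0.0213).

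Proteins along the path of the messenger through the small subunit gave mixed results. RPS2, RPS3, RPS15 and RPS23, at the entry channel and the decoding site, were all lower, by 0.14 to 0.30 on the log2 scale with TMM. With cyclic loess only RPS23 of the 4 was called. Of all members tested, 66.7% were lower with TMM and 27.4% with cyclic loess, against 25.9% and 25.1% of all genes. RPS23, which reads codon fit at the decoding centre, had 162, 159 and 172 CPM labelled knockout, against 212, 200 and 198 CPM labelled WT, with no overlap. RPS2 (1897, 1841 and 1999 CPM labelled knockout, against 2044, 2134 and 2159 CPM labelled WT) was lower by 0.14 with TMM but was 0.01 and not called with cyclic loess, and was not called with upper-quartile factors (adjusted p = 0.0638). At the exit side, RPS14 and RPS26 were lower, RPSA was not called (-0.09, but called lower without replicate 3 labelled knockout, adjusted p = 0.00687, and with no filter, 0.0279) and RPS28 was higher. RPS26 had 302, 282 and 322 CPM labelled knockout, against 375, 368 and 376 CPM labelled WT, a log2 fold change of -0.30 ± 0.04. RPS6, the S6 kinase substrate, had a log2 fold change of -0.05, as did RPS27A, which is made as a fusion with ubiquitin, and neither was called.

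The 2 members called higher were both of the small subunit. RPS28 had 159, 137 and 145 CPM in the libraries labelled knockout, against 105, 120 and 120 CPM in the libraries labelled WT. The groups did not overlap, and the log2 fold change was 0.36 ± 0.06 (SE; edgeR adjusted p = 9.1e-06). Most of the summed reads of RPS28 and its pseudogenes lay in pseudogenes, 63.7% in the libraries labelled knockout and 64.7% in those labelled WT. The main one, RPS28P7, was itself higher, with 4980, 6271 and 8094 counts labelled knockout, against 5506, 5711 and 4676 counts labelled WT. With pseudogene counts added, RPS28 still had a log2 fold change of 0.32. KANK3, on the other strand, covers 17.2% of the exon bases of RPS28, and the library kit does not mark strand, so reads of the 2 genes there cannot be told apart. KANK3 had 23, 35 and 40 counts labelled knockout, against 9, 10 and 6 counts labelled WT, and its part in the value of RPS28 was not tested.

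RPS9, which joins the small subunit early, had 597, 572 and 590 CPM labelled knockout, against 533, 552 and 549 CPM labelled WT. The groups did not overlap, though the log2 fold change was only 0.11 ± 0.04 (SE; edgeR adjusted p = 0.0234). The call was lost without replicate 1 labelled knockout (adjusted p = 0.113), without replicate 1 labelled WT (0.0868) and without replicate 3 labelled WT (0.076). It was also lost with no filter on low counts (0.0751).

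**Figure D3:**
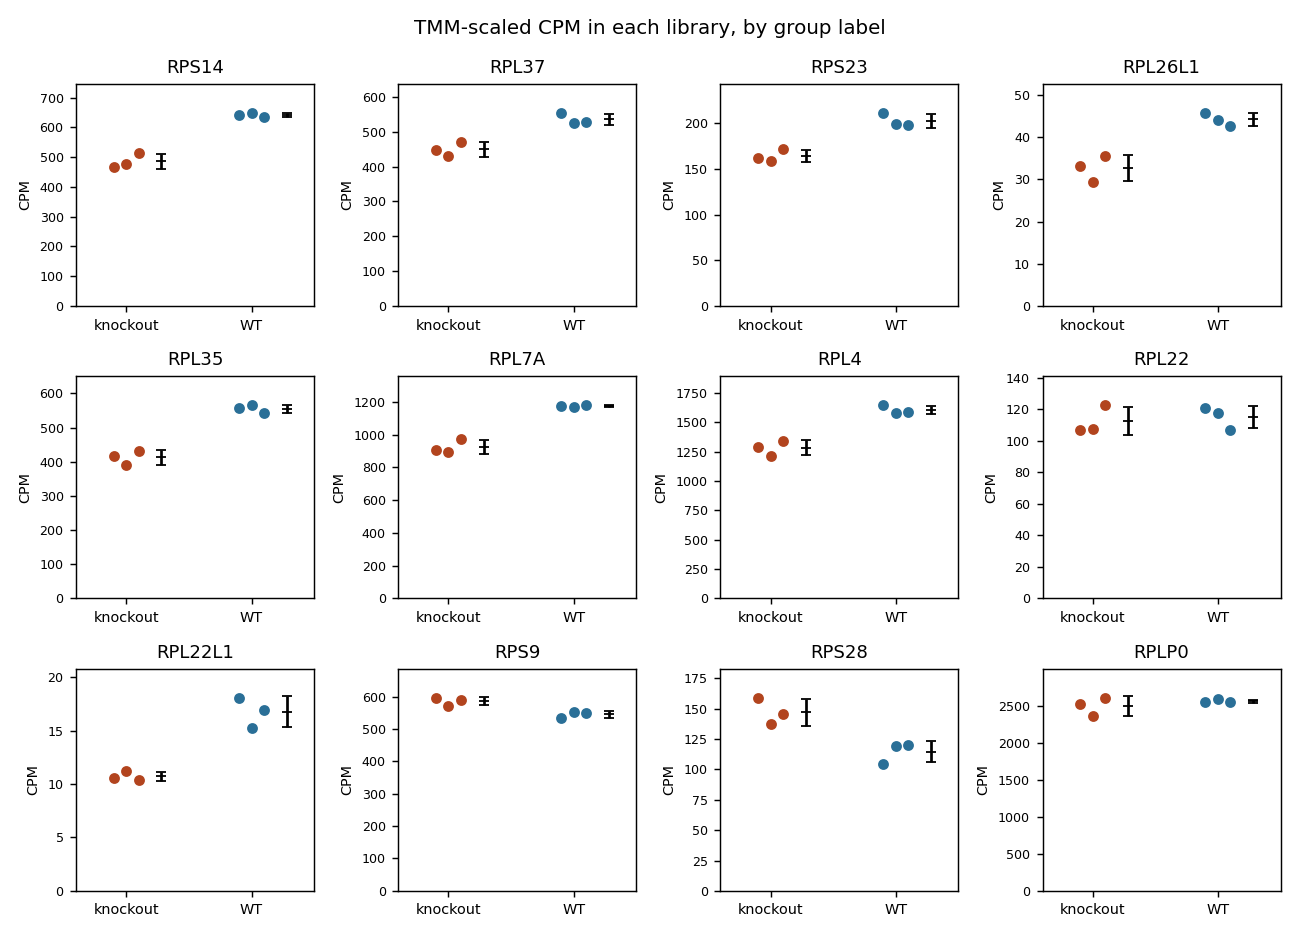
TMM-scaled CPM of 12 ribosomal protein genes in each library, axes from 0, with mean ± SD beside the 3 points of each group. RPS14, RPS23, RPL35, RPL7A and RPL4 show 2 separate groups, RPL22 and RPLP0 overlap, and RPS9 and RPS28 are higher in libraries labelled knockout.

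All 4 members on chromosome 5 were lower. RPS14 (chromosome 5, 150442635 to 150449756, minus strand, GRCh38), a small subunit protein known for its loss with deletions of the long arm in myelodysplastic syndrome, had 468, 476 and 515 CPM labelled knockout, against 642, 650 and 635 CPM labelled WT. Its groups did not overlap, and the log2 fold change was -0.40 ± 0.04 (SE; edgeR adjusted p = 2.19e-08). RPL37, a zinc-binding protein of the large subunit on the short arm, had 448, 429 and 472 CPM labelled knockout, against 555, 524 and 527 CPM labelled WT, a log2 fold change of -0.25. RPL26L1, the paralogue of RPL26, had 33.1, 29.3 and 35.4 CPM labelled knockout, against 45.8, 44.2 and 42.8 CPM labelled WT, a log2 fold change of -0.44 ± 0.07. RPS23, given above, is the fourth.

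Genes of chromosome 5 were lower in general. Of the 781 genes tested there, 366 (46.9%) were lower and 111 higher, with a median log2 fold change of -0.20, against 0.01 for genes of the other chromosomes; with cyclic loess 356 were lower and 96 higher. RACK1, a ribosome-bound scaffold protein outside the rule, lies there too and had 725.5, 701.5 and 728.5 CPM labelled knockout, against 1007, 1003 and 1015 CPM labelled WT, a log2 fold change of -0.49. The copy number of chromosome 5 was not measured, and its part in these values was not tested. Without chromosome 5, 52 of 80 members (65%) were lower and 2 higher with TMM, with a median of -0.15. Of all genes tested off chromosome 5, 24.9% were lower and 27.3% higher. With cyclic loess, RPS14, RPL37, RPL26L1 and RPS23 were among the 23 of 84 members called lower.

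Of the 7 paralogues tested, 3 (42.9%) were lower with TMM and 4 not called. The share lower was 25.9% over all genes tested and 66.7% over the members. RPL22L1, which can replace RPL22 in the ribosome, had 10.5, 11.2 and 10.4 CPM in the libraries labelled knockout, against 18.1, 15.2 and 17.0 CPM in the libraries labelled WT. Its groups were clearly apart, and its log2 fold change was -0.64 ± 0.09 (SE; edgeR adjusted p = 3.83e-06). RPL22 had 107, 108 and 123 CPM labelled knockout, against 120, 117 and 107 CPM labelled WT, so its groups overlapped and the log2 fold change of -0.03 ± 0.05 was not called. The difference between these changes was not tested. RPL26L1 and RPL26 (-0.44 and -0.38) and RPL7L1 and RPL7 (-0.28 and -0.22) were lower in both members of the pair, though RPL7 was not called with cyclic loess. In 3 pairs the paralogue was not called: RPL36AL (0.01), RPL39L (0.02) and RPS27L (-0.01). Their core genes were at -0.81 for RPL36A, -0.08 for RPL39 and -0.14 for RPS27, with RPL39 not called. RPL36A, RPL26 and RPL22 share exons with another coding gene on the same strand, so their pairs are uncertain. RPL36A held only 34 to 120 counts in a library. RPL26, with means of 14.9 CPM labelled knockout and 19.4 CPM labelled WT, lay below its paralogue RPL26L1. The call of RPS27 was lost without replicate 1 labelled WT (adjusted p = 0.149), without replicate 2 labelled knockout (0.182), with upper-quartile factors (0.167), with the stricter filter (0.0627) and with cyclic loess. RPL3L, known from skeletal and heart muscle, had 12 to 17 counts in a library and was not called.

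Levels per gene length, from the authors' FPKM, spanned a wide range. Among the 77 core genes the mean over the 6 libraries ran from 0.774 FPKM for RPL36A to 828 FPKM for RPS2, with a median of 133 FPKM. RPL41, the smallest ribosomal protein, followed RPS2 with 727 ± 72.4 FPKM labelled knockout and 784 ± 4.76 FPKM labelled WT (SD, n = 3 each). These lengths count every annotated exon base, rarely used transcripts included, and RPS29, with a length of 9845 bases, was at 7.94 ± 0.0564 FPKM labelled knockout and 8.54 ± 0.221 FPKM labelled WT. The 3 lowest core genes (RPL36A, RPS10 and RPL17) all share exons with another protein-coding gene on the same strand. In all, 9 core genes do, with a median of 6.78 FPKM, against 166 FPKM for the other 68. The overlapping gene's own row held at most 3 counts in any library for those 3.

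The 2 largest falls of the family were in RPS10 and RPL36A. RPS10 had 27, 39 and 39 counts in libraries labelled knockout, against 90, 62 and 79 counts in libraries labelled WT, a log2 fold change of -1.12 ± 0.23. RPL36A had 34, 58 and 78 counts labelled knockout, against 96, 120 and 84 counts labelled WT, a log2 fold change of -0.81 ± 0.19. Their values in CPM did not overlap between groups, but these rows hold a small part of what a core gene usually has, and their folds are uncertain. With pseudogene counts added, RPS10 had a log2 fold change of -0.44. With TMM, the 66 core genes without such an overlap and with no more than 50% of summed reads in pseudogenes had 45 (68.2%) lower and 1 higher, with a median of -0.15. That stands beside 25.9% lower over all genes and 51.1% over the other highly expressed coding genes. Genes overlapped on the opposite strand were kept, such as RPL10, with 34.2% of its exon bases shared with DNASE1L1. The kit does not mark strand, so reads there are uncertain too. With cyclic loess, 23 of all 84 members were lower.

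**Figure D4:**
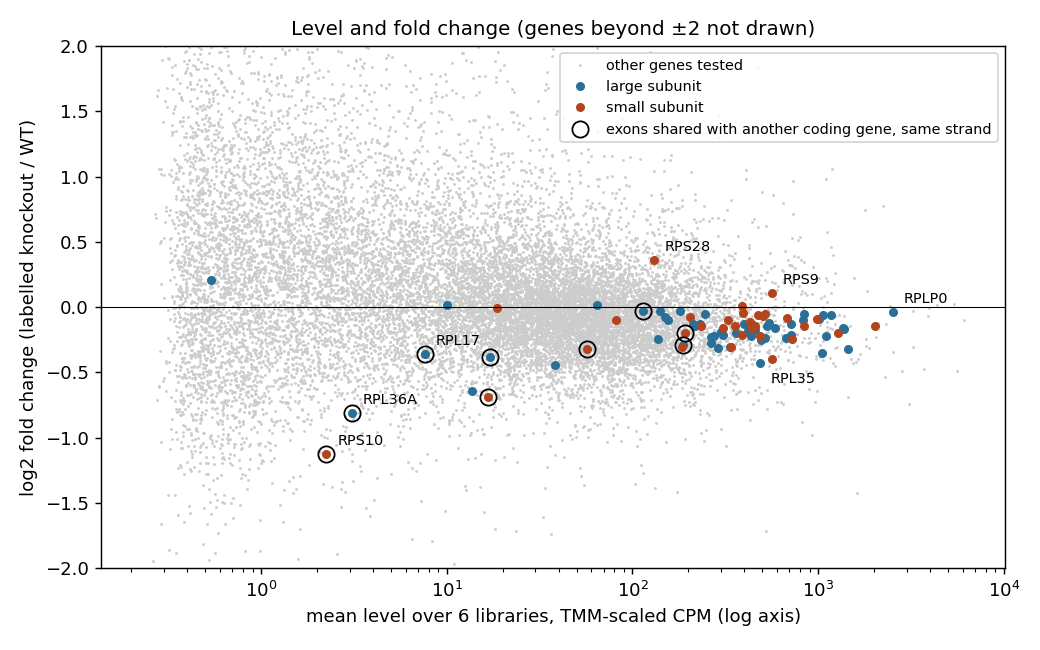
Log2 fold change (labelled knockout over labelled WT) against mean TMM-scaled CPM on a log axis, for ribosomal protein genes by subunit over all other genes tested in grey. Circled genes share exons with a coding gene on the same strand and include the 2 largest falls, while most members lie above 100 CPM and slightly below 0.

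**Figure D5:**
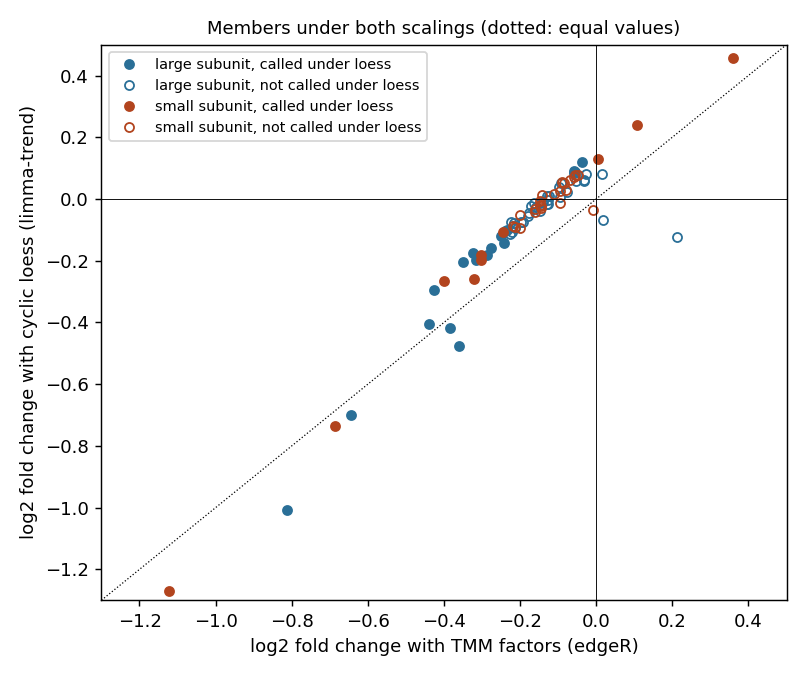
Log2 fold change of each member tested with TMM factors (edgeR, x axis) and with cyclic loess (limma-trend, y axis), the dotted line marking equal values. Most members lie above the line: 56 were lower and 2 higher with TMM, 23 lower and 6 higher with cyclic loess.

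Related genes were read from 5 further lists, the first of them a subset of the members. Their counts stand beside 25.9% lower over all genes and 51.1% lower over the other highly expressed coding genes with TMM, and beside 25.1% and 35.6% with cyclic loess. Of 19 ribosomal protein genes mutated in Diamond-Blackfan anaemia, an inherited failure of red cell production, 16 (84.2%) were lower and 1 (RPS28) higher, with a median log2 fold change of -0.21; with cyclic loess 8 (42.1%) were lower and 1 higher. All 19 are members already counted above, and of the members 66.7% were lower with TMM and 27.4% with cyclic loess. RPS10, RPL35 and RPL26 were among the largest falls, and of these RPS10 and RPL26 share exons with another coding gene. Of the ribosome components that the rule leaves out, RACK1 was lower, and FAU, a fusion with a ubiquitin-like protein (0.01), was not called.

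Of 19 other TOP messengers, mostly translation factors, 15 of the 18 tested (83.3%) were lower and 1 higher, with a median of -0.19. With cyclic loess 8 (44.4%) were lower and 1 higher. EEF1G had 0 counts in every library, and whether this reflects its expression or how reads were counted was not tested. NPM1, a nucleolar chaperone of ribosome assembly, had 742.1, 728.9 and 828.5 CPM labelled knockout, against 1273, 1153 and 1172 CPM labelled WT, a log2 fold change of -0.65. GAS5, a snoRNA host gene (-0.49), BTF3, which binds nascent chains (-0.40), and EEF1B2, a translation elongation factor (-0.40), were also lower. TPT1, a growth-associated protein under translational control, was higher (0.12). NPM1 and BTF3 lie on chromosome 5.

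Of 15 regulators of the family, 7 (46.7%) were lower and the others were not called, with a median of -0.06. With cyclic loess 5 (33.3%) were lower and 1 higher. LARP1, the TOP-binding repressor, also on chromosome 5, had 425, 438 and 383 CPM labelled knockout, against 645, 627 and 659 CPM labelled WT, a log2 fold change of -0.63. MTOR, the growth kinase, had 145, 154 and 138 CPM labelled knockout, against 197, 193 and 200.3 CPM labelled WT, a log2 fold change of -0.44. Both were lower with no overlap between groups, as were TSC1, a brake on mTOR (-0.36), and MLST8, an mTOR partner (-0.30). The S6 kinase genes RPS6KB1 (0.07) and RPS6KB2 (-0.02) were not called.

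Of 9 chaperones that carry or load ribosomal proteins, 7 (77.8%) were lower and 1 (AAMP, 0.12) higher, with a median of -0.29; with cyclic loess 6 (66.7%) were lower and 1 higher. LTV1, which acts in small subunit maturation, had 11.4, 11.2 and 13.4 CPM labelled knockout, against 20.8, 17.4 and 18.96 CPM labelled WT, a log2 fold change of -0.66. GRWD1, which carries RPL3, was lower by 0.47, BCCIP, which binds RPL23, by 0.41, and PDCD2L, a relative of the RPS2 chaperone PDCD2, by 0.32 on the log2 scale.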

How the data were processed

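The 6 T3M4 libraries were made with the NEBNext Ultra kit, per the labels' protocols, a kit that keeps no strand information. The submitters' processing notes list GRCh38 as the build, and HISAT2, STAR, fastp and DESeq as tools. The counting tool is not given in the sources used here. The deposited count table holds raw counts per gene. FPKM, and the authors' own log2 fold changes and p-values, come from the authors' deposited table and are quoted as such. Beyond the columns used, 14 per-sample columns of that table were left aside. Positions of all 87 members equal those in the GENCODE annotation used.

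Counts were filtered with filterByExpr (minimum count 10, minimum total 15) and tested with edgeR 4.0.16 (TMM, quasi-likelihood, group as the only term, R 4.3.3), and p-values were adjusted by Benjamini-Hochberg. limma 3.58.1 and DESeq2 1.42.0 gave alternatives. The script was tested on simulated data. Named genes were the 6 largest changes in each direction, paralogue pairs, chromosome 5 members, members with fixed roles and up to 4 of each other list; RPL7A, RPL41, RPS29, KANK3, RPS28P7 and list members that were not called were chosen after their values were seen. Members and lists were chosen with earlier results of these data known. Some genes that these rules name are not reported here.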

Additional observations from a re-analysis of the deposited data

How the results depend on the processing

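The main values are 56 members lower and 2 higher, with medians of -0.17 for the large and -0.15 for the small subunit. With cyclic loess, 23 were lower (16 large, 7 small) and 6 higher, with medians of -0.062 and -0.021; 24 members below 0 with TMM then lay above 0, among them RPLP0 (0.12), RPL13 (0.091), RPL13A (0.086) and RPS2 (0.011). A required change of 20% lower or 25% higher left 11 lower (8 large, 3 small) and 1 higher. With no filter 61 were lower and 1 higher. There was also 1 higher at an adjusted p under 0.01. The same held without pseudogene-heavy members or those with same-strand coding overlap, an alternative chosen after seeing the data. Leaving out each library in turn gave 44 to 64 lower and 1 to 2 higher. The ratio of large to small counts differed by -0.0349, and by -0.0496 without chromosome 5 members. DESeq2 size factors, upper-quartile factors, factors without the members, the stricter filter, limma-trend, limma-voom, DESeq2 and added pseudogenes gave 41 to 57 lower and 2 higher. With the replicate block, 56 were lower and 2 higher. Deviations of same-numbered libraries were hardly correlated (r of 0.0116, 0.0205 and -0.024). For 2 of the libraries labelled knockout the highest r was still with the same-numbered library labelled WT. No clear pairing by number was seen, but these values cannot exclude one. The cause of these differences was not tested.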
